A study of Mus musculus with 8 samples.

Results

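Mouse ES cell lines engineered to express both splice forms of *Tbxt* were compared with lines that can make a single form, over all genes, in 8 RNA-seq libraries taken at day 1 of in vitro differentiation. The both-isoform lines are delE6/+, which lacks exon 6 of *Tbxt* on 1 allele, and insASAY/insASAY (Insert ASAY in the labels, homozygous per the study's methods), which carries the human AluSx1 and AluY elements in introns 5 and 6 on both alleles. The single-isoform lines are WT, with *Tbxt* unedited, and delE6/delE6, with exon 6 deleted on both alleles. Each line has 2 libraries, so 4 of the 8 libraries stand on each side. MK6 cells (C57BL/6J background) are the parent of each line, and all were driven to differentiate without feeder cells by the GSK3 inhibitor CHIR99021. The 2 delE6/delE6 libraries come from different clones, and for the other lines it is not stated if both replicates are from 1 clone. The Alu pair was inserted in cells grown on embryonic fibroblasts and exon 6 was deleted in feeder-free cells. Each side is thus made of 2 lines, and isoform state cannot be told apart from other differences between these particular lines. Counts per gene cannot separate the isoforms, so the class of a line rests on its genotype. For insASAY/insASAY, the study also reports finding the exon-skipped form in differentiated ES cells of this genotype.

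*Tbxt* (Brachyury) is a T-box transcription factor switched on in the primitive streak, where cells leave the pluripotent epiblast to form mesoderm, and it is later needed in the tail bud for the embryonic axis to lengthen. Canonical Wnt signalling, which CHIR99021 turns on by blocking GSK3, induces it. Splicing that joins exon 5 to exon 7 gives a protein that lacks the residues encoded by exon 6. Several gene groups reported here respond to signals from outside the cell: immediate early genes encode transcription factors such as the Fos and Jun families (AP-1) and are switched on within minutes by growth factors, adhesion or stress, and NF-kB activates many cytokine genes.

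Exon 6 is the sequence that separates the isoforms. It spans chr17:8438616-8438789 on the forward strand of GRCm38 (GENCODE M21), has 174 bases, or 58 codons without a remainder, and is the sixth of the 8 exons of the transcript. Below, exon 6 is in capitals between the last 15 bases of exon 5 and the first 15 of exon 7 (first line), and the second line gives the junction that skipping or deleting it creates, with exon 7 in capitals.
Tbxt exon 6: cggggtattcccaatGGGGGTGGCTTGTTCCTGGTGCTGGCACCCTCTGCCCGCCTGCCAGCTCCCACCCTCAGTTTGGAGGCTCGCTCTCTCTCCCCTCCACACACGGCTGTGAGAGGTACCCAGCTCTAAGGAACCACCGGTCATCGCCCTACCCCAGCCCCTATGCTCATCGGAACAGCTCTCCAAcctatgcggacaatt
Exon 5 to exon 7 junction: cggggtattcccaatCCTATGCGGACAATT

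*Tbxt* itself (T in the annotation, ENSMUSG00000062327.10, chr17:8434423-8442496) did not separate the classes. It had 1.70 and 1.56 CPM (reads per 1e6 reads on genes, scaled by the trimmed mean of M values) in WT, 1.05 and 0.807 in delE6/delE6, 1.09 and 1.06 in insASAY/insASAY and 1.48 and 2.21 in delE6/+. These values rest on 22 to 54 reads per library. The class means were 1.46 ± 0.533 (SD, n = 4) and 1.28 ± 0.420 (SD, n = 4), with a log2 fold change of 0.19 ± 0.19 (SE) and an adjusted p of 0.498 by the quasi-likelihood test of edgeR. Within the classes the lines differed: delE6/delE6 lay 0.81 below WT and insASAY/insASAY 0.76 below delE6/+ on the log2 scale (adjusted p = 0.036 and 0.0265).

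Depth was similar throughout, with 24618587 to 28445952 reads on genes per library. Unmapped reads made up 16.4% to 18.0% of all reads in the both-isoform libraries and 15.0% to 15.6% in the 3 single-isoform libraries whose files give this number, so the classes did not overlap in it, and its part in the results was not tested. The 8 ES cell markers were detected in every line, summing to 664 to 827 CPM in the both-isoform libraries and 567 to 1213 CPM in the single-isoform ones. Markers of fibroblast feeders (10 genes, none at 0 throughout) summed to 37.7 to 63.8 CPM and 41.8 to 58.6 CPM, and those of extraembryonic endoderm to 13.2 to 19.2 CPM and 10.8 to 16.1 CPM. The classes overlapped in all 3 sums. In bulk RNA, fewer cells of a type and less RNA per cell cannot be told apart.

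Of 17049 genes with enough reads to test, 1710 (10.0%) did not overlap between the classes, that is, the 4 CPM values of one class lay all above the 4 of the other: 653 (3.83%) were higher and 1057 (6.20%) lower in the both-isoform lines. The edgeR test, which takes its error from the 2 libraries of each line, called 1069 genes (6.27%), 550 higher (3.23%) and 519 lower (3.04%). A call means that the log2 fold change exceeded 0.5 in size with adjusted p below 0.05. Both criteria held for 513 genes (3.01%), 221 higher (1.30%) and 292 lower (1.71%), and these are the genes described here as separating the classes. With reads scaled by their total alone, the genes that did not overlap split into 982 higher and 762 lower, and those that also passed the test into 284 and 237. A model with 2 groups of 4 libraries, in which differences between lines of a class count as error, called 114 genes (0.669%), 11 higher (0.0645%) and 103 lower (0.604%), all among the 513. This 2-group model still takes the 4 libraries of a class as independent, although they come from 2 lines. Its p-values are therefore too small for a statement about lines, here and below. Without delE6/delE6 replicate 2, 801 genes separated the classes, 387 higher and 414 lower.

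The lines within a class differed from each other in more genes than the classes did. Between insASAY/insASAY and delE6/+, 4696 genes (27.5%) were called, 14.6% higher and 13.0% lower in insASAY/insASAY. Between delE6/delE6 and WT 2167 (12.7%) were called, 6.12% higher and 6.59% lower in delE6/delE6. Among the 513 genes that separate the classes, 132 (25.7%) were also called between the both-isoform lines and 51 (9.94%) between the single-isoform lines. A shift larger in delE6/+ than in insASAY/insASAY was found for 353 of the 513. The same share over all tested genes was not counted, so this is not shown to be particular to these genes. The 556 genes that were called but overlapped included 413 (74.3%) called between the both-isoform lines. A called gene overlaps readily when 1 both-isoform line lies among the single-isoform libraries. The contrast with 25.7% thus follows largely from the criterion of no overlap and is not a separate result. The strictest agreement, a call in the same direction for each both-isoform line against each single-isoform line, was met by 105 genes (0.616%), 23 higher (0.135%) and 82 lower (0.481%). These 4 comparisons share libraries, so the count is a description. It was 165 without delE6/delE6 replicate 2 and 67 without insASAY/insASAY replicate 1.

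**Figure D1:**
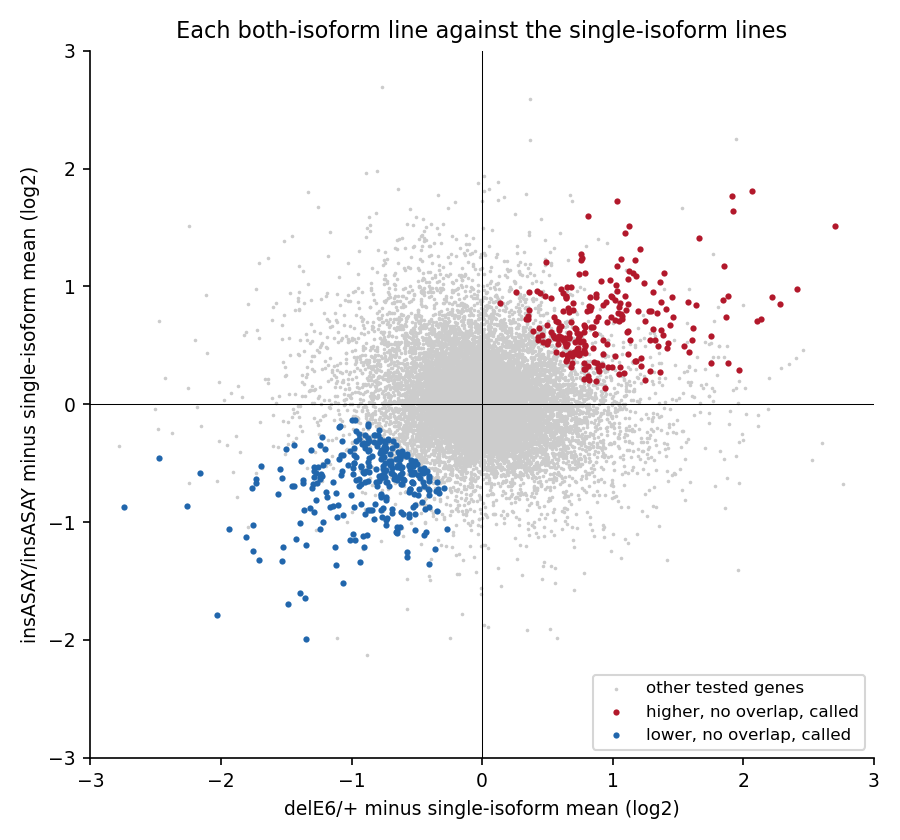
Difference of delE6/+ (x axis) and insASAY/insASAY (y axis) from the mean of the 4 single-isoform libraries, in log2(CPM + 0.1), with 1 point per tested gene. The 221 higher (red) and 292 lower (blue) genes lie in opposite corners because they were chosen that way, and both axes share the same single-isoform libraries.

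At a mean of at least 2 CPM, the 15 widest separations were all of genes lower in the both-isoform lines. *Thbs1* encodes thrombospondin 1, a secreted matrix glycoprotein that activates TGF-β. It stood at 108, 112, 103 and 85.9 CPM in the 4 single-isoform libraries (WT, then delE6/delE6) and at 26.6, 36.8, 34.9 and 37.6 CPM in the both-isoform ones (insASAY/insASAY, then delE6/+). Every both-isoform value was below the lowest single-isoform value by at least 1.19 on the log2 scale, which is the gap used to rank genes. The log2 fold change was -1.59 ± 0.08 (SE, adjusted p = 5.06e-08), and *Thbs1* (chr2:118111876-118127133) passed the 2-group model too (adjusted p = 0.0036). All of the 15 lower genes with the widest gaps passed that model and were called in all 4 line pairs. Their log2 fold changes ran from -1.17 (*Tnfaip3*) to -1.99 (*Cxcl10*). These genes, *Thbs1* among them, were chosen for their gaps, the smallest of which was 0.699, already past the fold threshold of a call. Their calls in the line pairs thus follow largely from that choice, which also favours the 2-group model, and are not separate evidence.

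**Figure D2:**
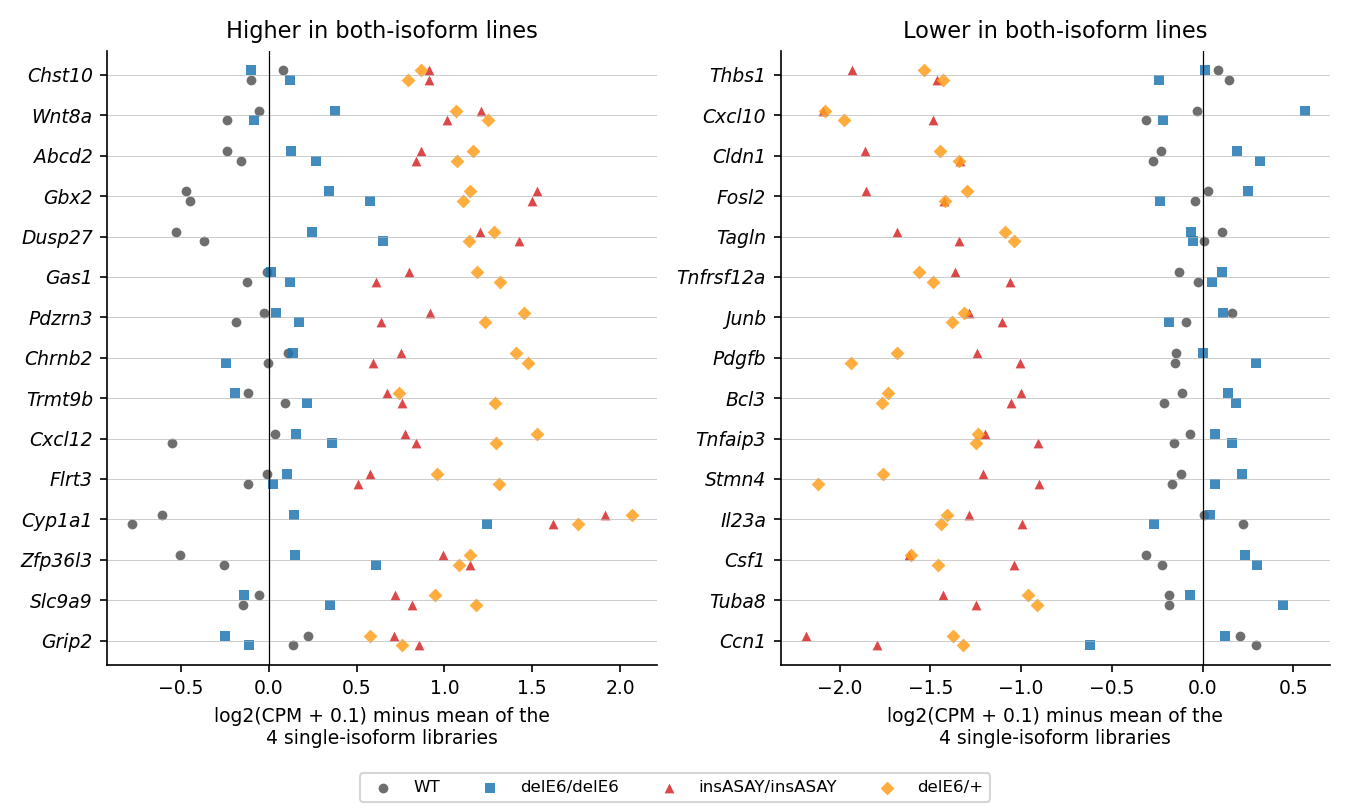
The 15 higher and 15 lower genes of at least 2 CPM with the widest gap between the classes, as log2(CPM + 0.1) minus the mean of the 4 single-isoform libraries, with 1 point per library and no error bars. In the right panel the single-isoform libraries (grey, blue) cluster near 0 and the both-isoform libraries (red, orange) lie to their left, while in the left panel WT and delE6/delE6 are pulled apart for *Gbx2*, *Dusp27*, *Cyp1a1* and *Zfp36l3*.

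Part of the immediate early list was lower. Of the 18 tested, 12 were called lower and none higher, and 9 (50.0%) were lower and separated the classes. The list's median log2 fold change was -0.61, against 0.01 over all tested genes. *Fosl2*, an AP-1 subunit (chr5:32135801-32157842), had 107, 102, 125 and 89.0 CPM in WT and delE6/delE6 and 28.9, 39.0, 42.6 and 39.2 CPM in insASAY/insASAY and delE6/+. Its fold change was 2.83 (log2 -1.50 ± 0.10, SE; adjusted p = 5.37e-07). *Junb*, another AP-1 subunit and a target of LIF signalling, ran from 30.1 to 38.3 CPM in the single-isoform libraries and from 13.0 to 15.8 CPM in the others, a 2.43-fold difference (adjusted p = 3.67e-07). *Ccn1*, which encodes the matricellular protein CYR61 and is a target of YAP, had 942, 1002, 889 and 532 CPM against 179, 236, 315 and 328 CPM. Its fold change was 3.22 (adjusted p = 9.87e-07), although delE6/delE6 replicate 2 lay well below the other single-isoform libraries and the both-isoform lines differed by 0.63 on the log2 scale (adjusted p = 0.0082). *Dusp1*, a phosphatase that shuts off MAP kinases, was 2.11-fold lower (adjusted p = 2.19e-08), with 47.2 and 50.1 CPM in delE6/+ and 76.6 and 88.7 CPM in insASAY/insASAY against 116 to 155 CPM in the single-isoform libraries.

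The group did not move as one. *Fos*, the founding member, was at 5.35 to 8.75 CPM in the both-isoform libraries and 5.35 to 9.31 CPM in the single-isoform ones, with a log2 fold change of -0.13 ± 0.17 (SE, adjusted p = 0.62), and *Jun* and *Egr1* had values of -0.16 and -0.27, inside the fold threshold. *Jun* was at 96.9 and 102 CPM in insASAY/insASAY, below every other library, and at 173 and 165 CPM in delE6/+, above every other library. *Fos*, *Jun* and *Egr1* were chosen after their values were seen. The summed level of the 19 listed genes was 1391 to 1637 CPM in the both-isoform libraries and 2285 to 3015 CPM in the others. Without *Ccn1*, which alone carried much of that difference and lies on chromosome 3, the sums were 1212 to 1322 CPM and 1754 to 2126 CPM.

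The lower genes named by the size of their gap or p included several cytokines and regulators of NF-kB, which were not fixed as a list. *Cxcl10*, a chemokine that draws in T cells, fell 3.97-fold (log2 -1.99 ± 0.20, SE; adjusted p = 1.36e-05), from 5.49, 4.50, 8.34 and 4.80 CPM in WT and delE6/delE6 to 1.24, 1.94, 1.25 and 1.35 CPM in insASAY/insASAY and delE6/+. *Csf1*, the growth factor of macrophages, was at 16.2 to 24.8 CPM in the single-isoform and 6.49 to 9.77 CPM in the both-isoform libraries, a 2.69-fold difference. *Il23a*, a subunit of interleukin 23, was 2.47-fold lower and *Pdgfb*, a chain of platelet-derived growth factor, 2.80-fold lower. *Tnfaip3*, which encodes the ubiquitin-editing protein A20 that restrains NF-kB, was 2.25-fold lower and *Bcl3*, an IκB-family coactivator, 2.66-fold lower. *Tnfrsf12a*, the receptor for TWEAK, had 83.5, 89.5, 98.1 and 94.5 CPM against 35.4, 43.7, 30.9 and 32.5 CPM, with an adjusted p of 1.89e-08. *Zfp36*, which encodes tristetraprolin, a protein that speeds the decay of cytokine mRNAs, was 2.15-fold lower. Adjusted p for these genes was 1.36e-05 or smaller in the edgeR fit. *Pdgfb* and *Bcl3* were lower in delE6/+ than in insASAY/insASAY, by 0.70 and 0.74 on the log2 scale (adjusted p = 0.0027 and 0.00058).

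A list of cytoskeletal genes (keratins, calponins, tropomyosins, actins, annexins, galectins, S100 proteins, vimentin and lamins) had 9 of 26 members lower (34.6%), none higher, and a median log2 fold change of -0.65. The 2-group model kept 5 of the 9. *Tagln*, which encodes the actin-binding protein transgelin, had 390, 364, 345 and 348 CPM in WT and delE6/delE6 and 112, 143, 170 and 176 CPM in insASAY/insASAY and delE6/+, and its adjusted p was 2.19e-08. The classes were far apart for this gene, and insASAY/insASAY was lower than delE6/+ by 0.44 on the log2 scale (adjusted p = 0.00059). *Cnn2* (calponin 2) ran from 187 to 211 CPM and from 94.6 to 116 CPM, a 1.86-fold difference with no call between the lines of either class. *Lgals3*, which encodes the lectin galectin 3, had a fold change of 3.57, but the lines of its class were far apart, with 9.18 and 11.6 CPM in insASAY/insASAY and 2.76 and 2.74 CPM in delE6/+ against 16.7 to 21.5 CPM in the single-isoform libraries. Another 5 of the list's members were called but overlapped between the classes. The B-type lamins *Lmnb1* and *Lmnb2* had log2 fold changes of 0.05 and 0.06 (adjusted p = 0.264 and 0.427), and both were chosen after their values were seen.

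**Figure D3:**
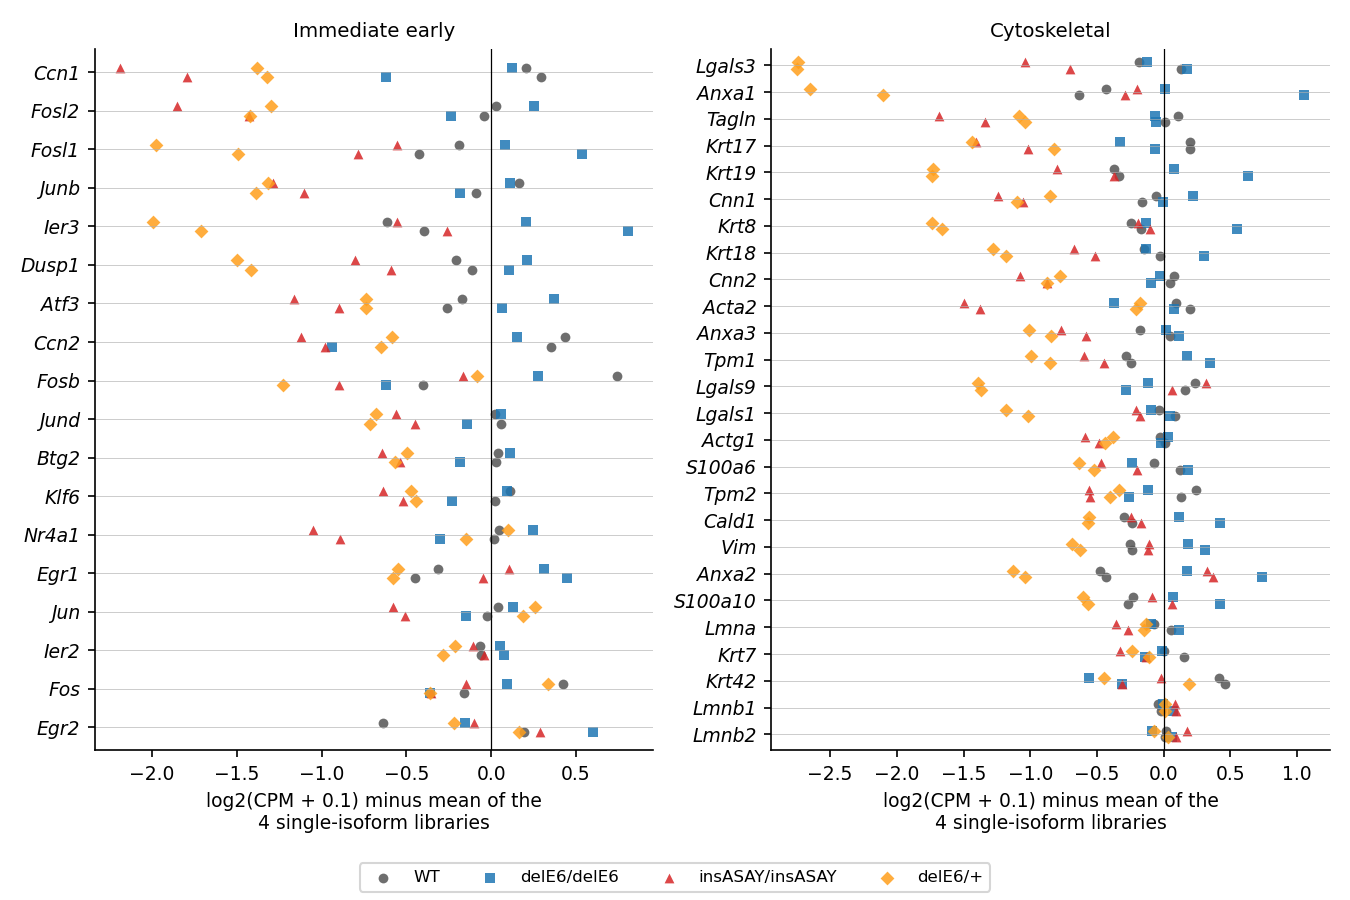
Every tested member of the immediate early list (left, 18 genes) and the cytoskeletal list (right, 26 genes), ordered by log2 fold change, as log2(CPM + 0.1) minus the mean of the 4 single-isoform libraries, with 1 point per library. All red and orange points lie left of all grey and blue for 9 genes in the left panel and 12 in the right, of which 9 were also called, and toward the bottom of the panels the 4 lines intermingle.

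Some genes of the matrix, cell adhesion and epithelial junctions were lower, whereas other adhesion genes were higher. Of 44 tested collagen, laminin and integrin genes (with thrombospondin), 7 (15.9%) were lower and none higher, with a median log2 fold change of -0.28, and 3 were called higher with overlapping classes. The 2-group model kept 4 of the 7. *Itga5*, the integrin subunit that binds fibronectin, was at 176 to 213 CPM in the single-isoform and 116 to 127 CPM in the both-isoform libraries (adjusted p = 1.77e-07). The claudins named here, which encode tight junction proteins, were selected for their change. *Cldn1* had 3.03, 2.94, 4.09 and 4.47 CPM in WT and delE6/delE6 and 0.911, 1.35, 1.25 and 1.35 CPM in insASAY/insASAY and delE6/+. *Cldn4* stood at 725 to 808 CPM and 302 to 533 CPM, and *Cldn6* at 189 to 224 CPM and 59.0 to 133 CPM. Both *Cldn4* and *Cldn6* were lower in delE6/+ than in insASAY/insASAY, by 0.72 and 1.05 (adjusted p = 3.71e-07 and 5.38e-07). *Cdh1*, which encodes E-cadherin and was the single cadherin of 23 called lower against 2 called higher, was 1.48-fold lower (adjusted p = 8.93e-07), at 651 to 818 CPM and 469 to 529 CPM. *Epha2*, an ephrin receptor, was 2.10-fold lower, in a list of 53 ephrin, semaphorin and axon guidance genes of which 8 were called higher and 3 lower (median 0.20). *Pawr*, a pro-apoptotic partner of WT1, was 1.75-fold lower, with 186 to 199 CPM against 96.1 to 123 CPM.

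The LIF and Stat3 list, whose pathway keeps ES cells self-renewing, had 4 of 14 members lower (28.6%), none higher, and a median of -0.25, and 2 of the 4 passed the 2-group model. *Lif* itself had 22.3 and 23.2 CPM in WT and ran from 11.5 to 14.5 CPM in the both-isoform libraries, below each delE6/delE6 library, a 1.71-fold difference (adjusted p = 1.83e-06). *Klf4*, a pluripotency factor induced by LIF, had a log2 fold change of -0.51, just past the threshold, and lost its call under 8 of the 19 alternatives. The other 2 were *Junb*, given above, and *Socs1*, a feedback inhibitor of the pathway (1.51-fold), which lies outside the naming rule. Among BMP genes, 3 of 19 (15.8%) were lower: the ligand *Bmp2* by 2.16-fold, the secreted antagonist *Nog* by 2.08-fold and the inhibitory *Smad7* by 1.68-fold, whereas *Id2* and *Id3*, targets of the pathway, were called higher with overlapping classes (log2 0.52 and 0.88, both chosen after their values were seen). Other single genes lower in their lists were *Dusp5*, a phosphatase of ERK (1.88-fold), *Pfkfb3*, an activator of glycolysis (1.79-fold), *Cth*, an enzyme of cysteine synthesis (1.77-fold), *Plk2* and *Perp* of the p53 targets (1.55- and 1.44-fold), and *Wnt7b* (1.99-fold).

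Fewer of the higher genes were separated as widely. *Wnt8a*, a Wnt ligand of the early primitive streak, had 10.8, 9.45, 14.6 and 10.5 CPM in WT and delE6/delE6 and 25.9, 22.7, 23.5 and 26.7 CPM in insASAY/insASAY and delE6/+. Its fold change was 2.19 (log2 1.13 ± 0.10, SE; adjusted p = 3.06e-06), it passed the 2-group model (adjusted p = 0.0125), and no difference was called between the lines of either class. *Chst10*, which encodes the sulphotransferase that makes the HNK-1 carbohydrate, had the widest gap of the higher genes of at least 2 CPM, 0.67, at 2.31 to 2.71 CPM and 4.37 to 4.77 CPM. *Abcd2*, a peroxisomal transporter of fatty acids, was 2.00-fold higher and *Gas1*, a membrane protein that binds hedgehog ligands, 1.99-fold higher. With *Pdzrn3*, these were the 5 of the 15 higher genes with the widest gaps that the 2-group model called.

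For several higher genes delE6/delE6 lay between WT and the both-isoform lines. *Gbx2*, a homeobox gene downstream of LIF and Wnt in ES cells, had 2.85 and 2.90 CPM in WT, 5.10 and 6.01 CPM in delE6/delE6, 11.7 and 11.5 CPM in insASAY/insASAY and 8.97 and 8.71 CPM in delE6/+. It was 2.53-fold higher (adjusted p = 6.38e-07) but delE6/delE6 was also above WT by 0.95 (adjusted p = 0.00044), and the 2-group model gave an adjusted p of 0.065. *Cyp1a1*, a cytochrome P450 induced through the aryl hydrocarbon receptor, had 1.48 and 1.30 CPM in WT, 2.55 and 5.57 CPM in delE6/delE6 and 7.28 to 9.96 CPM in the both-isoform libraries, and delE6/delE6 exceeded WT by 1.56 (adjusted p = 0.0031). *Zfp36l3*, *Dusp27* and *Foxb1* had the same order of lines. Conversely, *Cxcl12*, a chemokine, *Flrt3*, an adhesion protein, and *Chrnb2*, a nicotinic receptor subunit, were higher in delE6/+ than in insASAY/insASAY by 0.63, 0.60 and 0.79 on the log2 scale. *Sfrp2*, a secreted Wnt inhibitor on chromosome 3, had 23.2 to 33.0 CPM in the single-isoform and 41.6 to 48.4 CPM in the both-isoform libraries, and *Trh*, the precursor of thyrotropin-releasing hormone, was 1.79-fold higher.

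The lists of developmental regulators held few genes that separate the classes. Of 19 primitive streak and mesendoderm genes, *Wnt8a* and *Cdx2* were higher and *Wnt3* was lower (10.5% and 5.26%). *Cdx2*, a homeobox gene of posterior mesoderm and trophectoderm, was low, at 0.108 to 0.335 CPM in the single-isoform libraries, 0.911 and 0.622 CPM in insASAY/insASAY and 2.04 and 1.68 CPM in delE6/+. Its fold change of 5.44 (log2 2.44 ± 0.34, SE; adjusted p = 0.00018) passed edgeR, but DESeq2 gave no adjusted p for this gene. Of 15 neural progenitor genes, 8 (53.3%) were called higher and none lower, with a median of 0.58, but only *Foxb1* and *Pou3f2* (13.3%) did not overlap. *Sox1*, chosen after its values were seen, shows the difference: it had 24.5 and 23.6 CPM in delE6/+ and 7.91 and 5.86 CPM in insASAY/insASAY, and 1 of the latter lay inside the single-isoform range of 5.36 to 7.33 CPM. *Sox3*, a related gene, had 12.2 and 10.7 CPM in delE6/+ and 7.32 and 7.58 CPM in insASAY/insASAY against 5.10 to 6.05 CPM. *Fgfr2* and *Rarb*, receptors for fibroblast growth factor and retinoic acid, were likewise higher in delE6/+ than in insASAY/insASAY (by 1.06 and 0.88). Clustered protocadherins, cell adhesion genes that share exons within a cluster, had 4 of 21 members higher (19%) and none lower, with a median of 0.54. The count was 7 without delE6/delE6 replicate 2, 2 without WT replicate 2 or delE6/+ replicate 2 or under DESeq2, 1 when tested against a log2 change of 0.5 (TREAT) and 0 in the 2-group model. Reads on their shared exons may be split among members, so *Pcdhga7* (2.09-fold) and *Pcdhga3* (2.54-fold) are uncertain one by one.

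**Figure D4:**
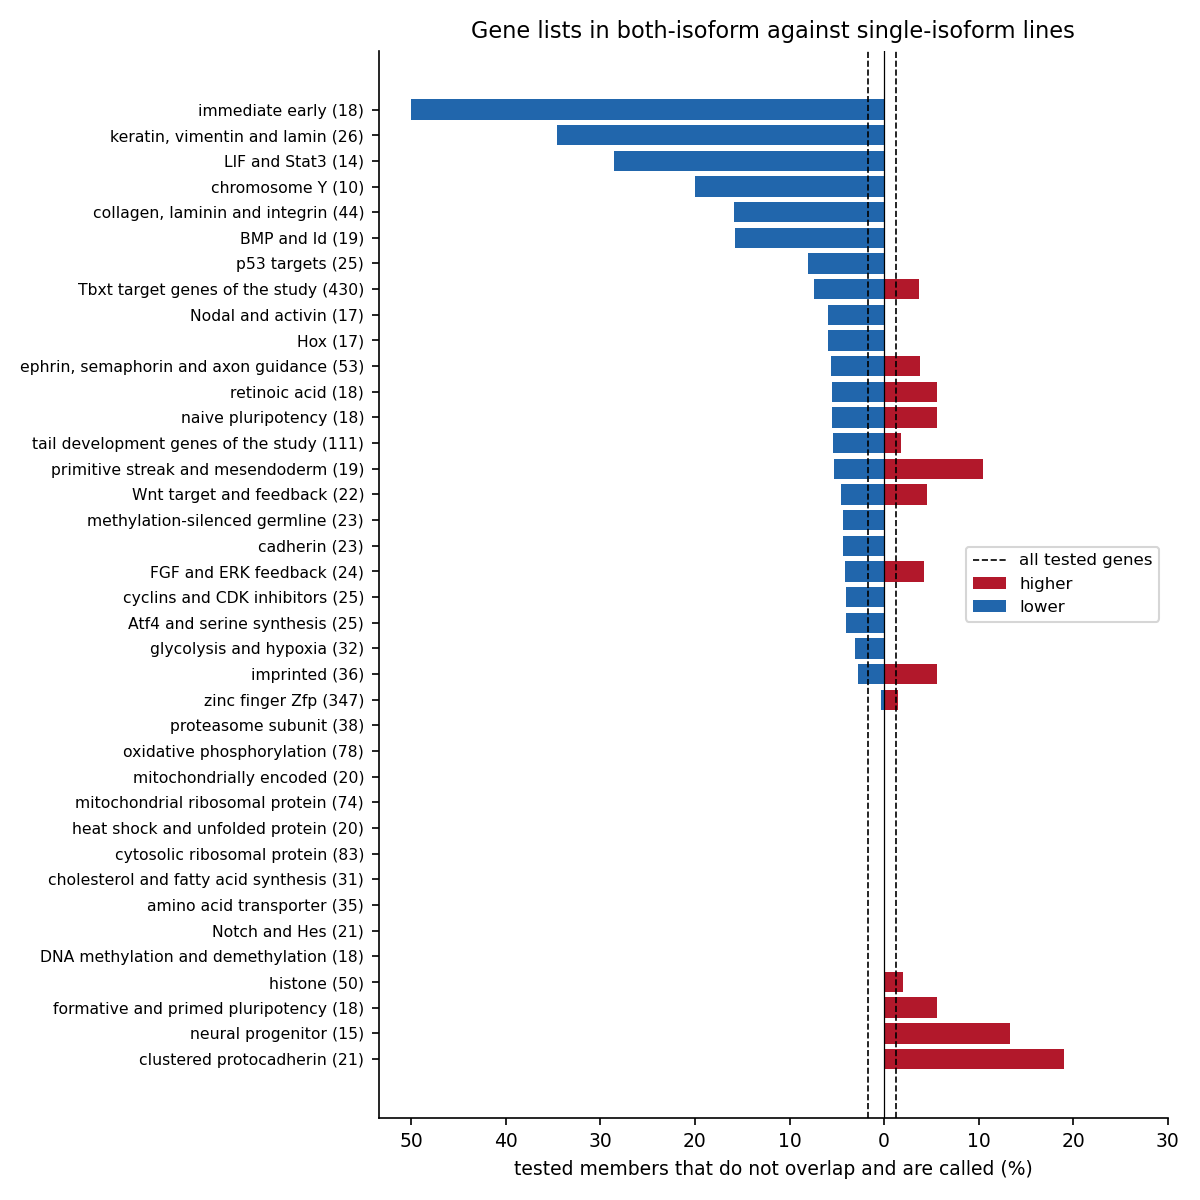
Share of the tested members (number in parentheses) of each gene list with at least 10 tested members that separate the classes, lower to the left in blue and higher to the right in red. Dashed lines mark the shares over all tested genes, 1.71% and 1.30%, and the immediate early list reaches 50.0% on the left whereas 10 lists have no member on either side.

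Other groups held few or no such genes. None of the 83 cytosolic ribosomal protein genes, 74 mitochondrial ribosomal protein genes, 78 oxidative phosphorylation genes, 38 proteasome genes, 31 genes of cholesterol and fatty acid synthesis or 20 heat shock and unfolded protein genes was called in either direction, with medians from -0.0484 to -0.00391. Without regard to the call, 6 of the 31 did not overlap, all lower, against 6.20% lower over all tested genes. The proteasome genes had 1 higher and 4 lower, the mitochondrial ribosomal 1 and 3, and oxidative phosphorylation 3 and 0. Of the 8 ES cell markers none separated the classes and 2 were called lower. The list of 431 *Tbxt* target genes named by the study, which was chosen as differentially expressed in these same libraries and is not independent evidence, had 16 of 430 tested members higher (3.72%) and 32 lower (7.44%). The higher count was 30 without delE6/delE6 replicate 2, 2 in the 2-group model and 8 under TREAT, and the lower count was 19 and 15 in the latter models. Among tail development genes, 2 of 111 were higher (1.80%) and 6 lower (5.41%), among them *Csf1*, *Epha2*, *Col2a1* and *Nog*. On chromosome Y 2 of 10 tested genes, *Ddx3y* and *Uba1y*, were lower by 0.55 and 0.56. Both lost their call in the 2-group model and under TREAT. The summed level of chromosome Y was 232 and 214.9 CPM in delE6/delE6. It was 154.7 and 152.3 CPM in WT, inside the both-isoform range of 135.5 to 166.2 CPM.

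Chromosome 3 held 44 of the 513 genes (8.58%), 31 higher and 13 lower, and 5.19% of its 848 tested genes against 3.01% overall. In delE6/+ the whole chromosome was shifted: its median gene lay 0.30 above the single-isoform mean on the log2 scale, against 0.00 in insASAY/insASAY, and no other autosome's median moved by more than 0.08 in delE6/+. The shift changed sign along the chromosome. The single step that left the least squared deviation lay at 136.7 Mb. Over the 755 tested genes before it the median was 0.36 in delE6/+, and over the 93 beyond it -0.60, with 0.00 and -0.01 in insASAY/insASAY. The step was looked for after these values were seen. Of the 44, 39 had the larger shift in delE6/+, as did 353 of the 513. The same share over all 848 tested genes of the chromosome was not counted. It is thus not shown to be particular to the 44. Members named above that lie on chromosome 3 include *Ccn1*, *Csf1*, *Cth*, *Chrnb2* and *Sfrp2*. The part of the chromosome's shift in their differences was not tested. With chromosome 3 left out, 466 genes separated the classes, 193 higher and 273 lower.

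**Figure D5:**
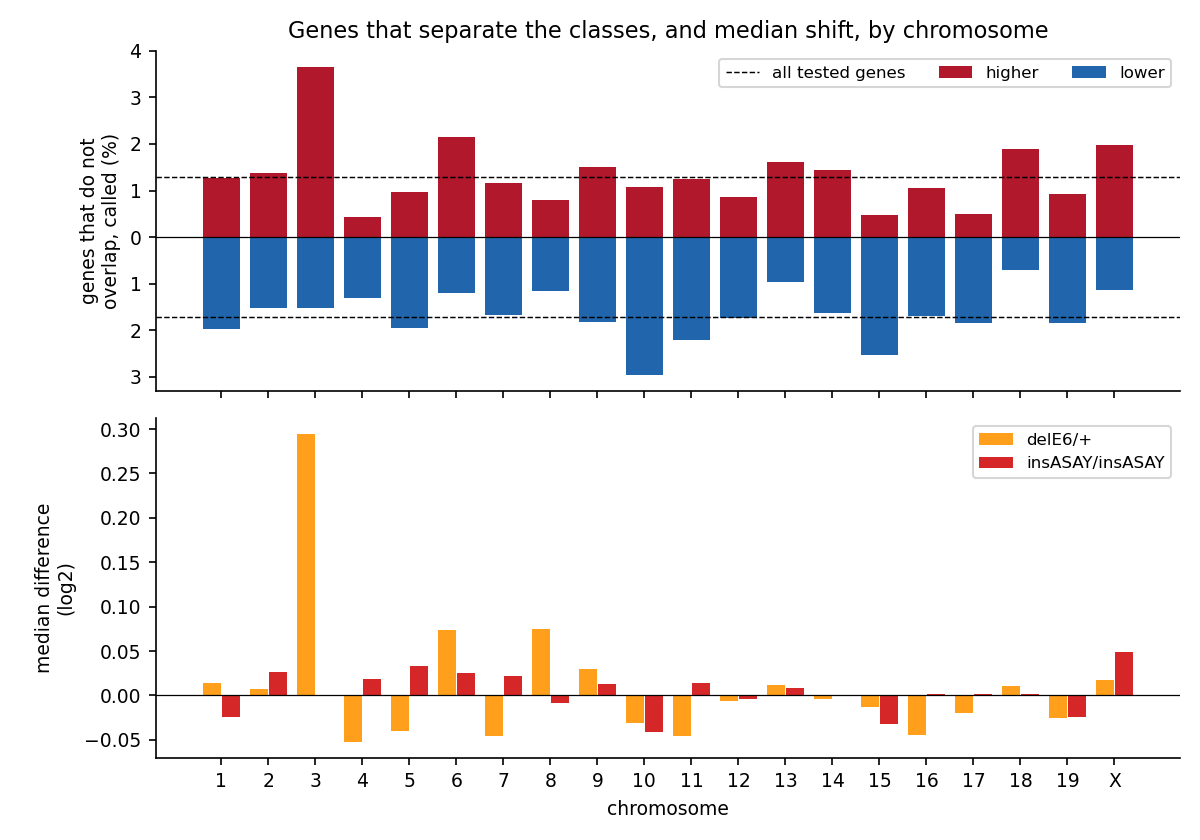
Top, share of the tested genes of each autosome and chromosome X that separate the classes, higher above 0 and lower below it, with the shares over all tested genes dashed. Bottom, median difference of delE6/+ (orange) and insASAY/insASAY (red) from the mean of the 4 single-isoform libraries in log2(CPM + 0.1), where chromosome 3 of delE6/+ stands at 0.30.

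Promoter sequence was searched for 7 motifs because some of the lower genes named above encode AP-1 subunits or regulators of NF-kB. How many of the 292 lower genes do so was not counted. RefSeq promoters (GRCm38.p6, the 250 bases before the start) matched 203 of the 292 lower genes (259 promoters), 156 of the 221 higher genes (188 promoters) and 11560 of all tested genes (14718 promoters). Motifs were matched letter by letter on both strands, and no motif's letters hold another's. Shares are per promoter, so a gene with several promoters counts more than once, and shares per gene were not computed. The AP-1 motif TGAGTCA was present in 6.18% of lower, 2.13% of higher and 3.19% of all promoters. The TEAD motif GGAATG was in 14.3%, 7.98% and 10.8%, and the CRE TGACGTCA in 4.63%, 0.532% and 2.50%. The CArG box, bound by SRF, was in 2.32%, 0.532% and 1.16%, and the NF-kB motif, by its consensus, in 1.16%, 0% and 0.326%. The TCF/LEF motif CTTTGAT ran the other way, at 1.16% of lower, 4.26% of higher and 2.26% of all promoters, and the T-box motif AGGTGTGA was in 1.16%, 0.532% and 0.686%. Among lower and higher genes each motif but TEAD rests on 16 promoters or fewer, with 3 lower and 8 higher for TCF/LEF, and the shares are a description of letters in a short window, not of binding. Of the 30 genes with the widest gaps, 22 had a promoter in the table, and 4 with a match are shown, 5′ to 3′ on the gene's strand, with the match in capitals: TEAD in *Ccn1* (chr3:145649986-145650235, reverse strand), AP-1 in *Cxcl10* (chr5:92348890-92349139, reverse strand), NF-kB in *Csf1* (chr3:107760470-107760719, reverse strand) and TCF/LEF in *Cxcl12* (chr6:117168285-117168534, forward strand). Matches not shown were AP-1 in *Tnfaip3*, a lower gene, and TEAD in *Dusp27* and the CArG box in *Cyp1a1*, both higher genes. The promoters of *Fosl2* and *Junb* held none of the 7 motifs in this window.
Ccn1: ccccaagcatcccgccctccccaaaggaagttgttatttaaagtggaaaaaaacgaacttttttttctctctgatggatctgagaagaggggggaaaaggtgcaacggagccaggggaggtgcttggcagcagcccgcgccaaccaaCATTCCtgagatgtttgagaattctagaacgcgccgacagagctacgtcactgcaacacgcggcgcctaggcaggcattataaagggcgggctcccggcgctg
Cxcl10: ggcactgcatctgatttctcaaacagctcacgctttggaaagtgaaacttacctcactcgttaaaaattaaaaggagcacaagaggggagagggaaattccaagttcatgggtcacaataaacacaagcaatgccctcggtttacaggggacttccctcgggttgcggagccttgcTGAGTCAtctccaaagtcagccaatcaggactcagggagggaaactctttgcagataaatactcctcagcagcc
Csf1: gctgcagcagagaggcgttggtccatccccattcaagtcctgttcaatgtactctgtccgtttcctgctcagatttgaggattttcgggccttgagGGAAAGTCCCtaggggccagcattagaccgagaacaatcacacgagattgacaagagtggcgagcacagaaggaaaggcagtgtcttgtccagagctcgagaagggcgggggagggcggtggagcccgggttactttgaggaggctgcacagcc
Cxcl12: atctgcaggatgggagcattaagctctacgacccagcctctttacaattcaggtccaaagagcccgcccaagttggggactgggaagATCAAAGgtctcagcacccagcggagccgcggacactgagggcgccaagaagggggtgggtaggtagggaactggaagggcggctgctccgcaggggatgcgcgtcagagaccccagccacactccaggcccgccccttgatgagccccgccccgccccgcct

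The choice of genes has an edge. The gene of at least 2 CPM just inside it was *Rnd1*, with both classes touching at 2.20 CPM, and the one just outside was *Hapln3*, for which insASAY/insASAY replicate 2 (2.93 CPM) lay under delE6/delE6 replicate 2 by 0.003 on the log2 scale. The 8 libraries can be divided into classes of 4 in 70 ways, so an exact two-sided permutation test of 1 gene over libraries could not go below 0.0286, and with the 4 lines as units it could not go below 0.333.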

How the data were processed

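Poly(A) RNA of the 8 libraries was sequenced with a directional kit. The authors mapped reads with STAR 2.7.2a and deposited its counts of reads per gene, raw and not normalized. The column of opposite-strand counts was used here. Columns of counts regardless of strand served as an alternative, and STAR's 4 summary lines, present in 7 files, stayed out of every test. Symbols and coordinates came from GENCODE M21 for 48058 of 48440 gene IDs, and 382 had no symbol. The annotation release behind the counts is not given in the sources used here.

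The analysis used edgeR 4.0.16 (R 4.3.3): filterByExpr (minimum count 10, minimum total 15), TMM scaling, 1 coefficient per genotype over all 8 libraries (4 residual degrees of freedom), and a quasi-likelihood test of the mean of delE6/+ and insASAY/insASAY minus that of WT and delE6/delE6, p-values being adjusted by Benjamini-Hochberg across 17049 genes. The steps were tested on simulated counts. The thresholds (adjusted p under 0.05, log2 fold change past 0.5) follow the study. The p-values measure the spread between the 2 libraries of a line. That spread was unequal. Its chi-square per degree of freedom was 10.5 in delE6/delE6, whose libraries are from different clones. It was 3.27 in WT, 2.65 in insASAY/insASAY and 3.26 in delE6/+. The fit uses 1 dispersion per gene for all lines. The gap is the difference between the nearest libraries of the classes in log2(CPM + 0.1). Precision is limited by 24618587 to 28445952 reads on genes per library.

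The genes, gene lists and tests were chosen with earlier results of these data known. The genes named are *Tbxt*, the 15 higher and 15 lower with the widest gap at a mean of at least 2 CPM (symbols such as Gm with digits, Rik and clone names were left out), up to 3 per list with the smallest adjusted p, the nearest to a gap of 0 on either side, and 3 per direction called in all 4 line pairs. Exceptions are marked. In the 43 lists, older symbols were matched through RefSeq synonyms. Alternatives were DESeq2 1.42.0, its size factors, total-read scaling, 2 filters, unstranded counts, a 2-group model and a replicate block. Others were TREAT (glmTreat of edgeR), chromosome 3 left out, GC and length offsets, and each library left out. Python 3.11.15 with pandas 2.3.3, numpy 2.4.6 and matplotlib 3.10.9 made tables and plots. Replicate numbers did not pair samples. Some genes that the rule selects are not reported here.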

Additional observations from a re-analysis of the deposited data

Results flagged for a closer look

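The edgeR test of insASAY/insASAY minus delE6/+ called 4696 of all 17049 tested genes (27.5%), at adjusted p under 0.05 and a log2 difference past 0.5. Among the 85 genes that the naming rule selects, 30 were called between these 2 both-isoform lines. The size of the change of these 30 against the single-isoform lines thus depends on the line. In 17 of them insASAY/insASAY was the lower line, with log2 differences of insASAY/insASAY minus delE6/+ for *Tbxt* (-0.76), *Gas1* (-0.55), *Pdzrn3* (-0.57), *Chrnb2* (-0.79), *Cxcl12* (-0.63), *Flrt3* (-0.60), *Ccn1* (-0.63), *Sox3* (-0.62), *Cdx2* (-1.28), *Pou3f2* (-1.18), *Fgfr2* (-1.06), *Rarb* (-0.88), *Hoxb9* (-0.66), *Zfp608* (-1.18), *Zfp521* (-0.93), *Col2a1* (-0.73) and *Hapln3* (-0.83). In 13 it was the higher line: *Pdgfb* (0.70), *Bcl3* (0.74), *Stmn4* (0.90), *Dusp5* (0.76), *Dusp1* (0.76), *Tgm2* (0.84), *Plk2* (0.52), *Cth* (0.51), *Epha2* (0.75), *Sema3c* (0.61), *Lgals3* (1.92), *Cldn4* (0.72) and *Cldn6* (1.05). *Lgals3* had the largest difference of these. Groups of 2 libraries are too small for a test of single outlying libraries, and none was run.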

How the results depend on the processing

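No alternative turned the direction of any of the 84 named genes other than *Tbxt*. Their calls were kept for 78 of the 79 with an adjusted p under DESeq2, 81 with total-read scaling, 82 with unstranded counts, 82 with GC and length offsets, 55 under TREAT and 36 under the 2-group model, and for 79 to 83 with a library left out. The 1069 called genes became 114 in the 2-group model, 200 under TREAT and 838 to 1301 with a library left out. The 1710 genes that did not overlap became 2058 to 2887 with a library left out, the highest without delE6/delE6 replicate 2. The 513 genes meeting both criteria became 114 in the 2-group model, 149 under TREAT and 481 to 801 with a library left out, and 381 of the 513 were kept by DESeq2, which gave no adjusted p for 86. The 105 genes called in all 4 line pairs became 20 under TREAT and 67 to 165 with a library left out. Of the 513, the 132 called between the both-isoform lines became 57 under TREAT and 107 to 137 with a library left out, and the 51 called between the single-isoform lines became 3 and 29 to 76. *Tbxt* kept a positive log2 fold change that was not called, from 0.04 to 0.33 with a library left out. Leaving out libraries leaves lines with 1 library, assumed to vary like the others, and fewer libraries make separation easier. The remaining causes were not tested. With replicate number as a block, 1047 genes were called and 503 met both criteria, and no call of a named gene was lost. The numbers did not pair the samples, since deviations of same-numbered libraries correlated at -0.1 to 0.0672 over 12837 genes. Having 2 lines per class limits every statement to these lines.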

Other observations

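Several genes outside the naming rule, chosen after their values were seen, also separated the classes. *Nfkbia*, which encodes the inhibitor IκBα, was lower by 0.87 on the log2 scale, *Relb* and *Rela*, subunits of NF-kB, by 0.78 and 0.58, and *Icam1*, an adhesion molecule induced by NF-kB, by 1.05. The adhesion plaque genes *Vcl* and *Zyx*, which encode vinculin and zyxin, were lower by 0.54 and 0.55. The matrix proteases *Adamts1*, *Adamts4* and *Adamts5* were lower by 0.66, 0.78 and 1.15. The voltage-gated potassium channel genes *Kcna2*, *Kcna3* and *Kcna6* were higher by 1.30, 1.14 and 0.57, and *Mycn* by 0.56. *Kcna2* and *Kcna3* lie on chromosome 3, which is shifted in delE6/+, and the part of that shift in their differences was not tested. *Icam1* and *Vcl* passed the 2-group model (adjusted p = 0.0335 and 0.0106 by edgeR), and the others named here did not.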
